A study of Rattus norvegicus with 23 samples.

Results

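The natriuretic peptide system of the rat heart was followed through 9 genes: the peptides Nppa, Nppb and Nppc, the receptors Npr1, Npr2 and Npr3, the propeptide-cleaving proteases Corin and Furin, and the peptide-degrading protease Mme (neprilysin). The genes were taken by name, and a probe was counted for a gene when its accession in the scanner files belonged to that gene. They had 12 of the 45440 probes used (3 for Npr3, 2 for Corin and 1 for each other gene), and they were 9 of 16544 genes with a symbol. The study hybridised RNA from 6 untreated regions of the heart and its adjoining vessels to 23 single-colour Agilent arrays. The regions were left atrium (LA, n = 4), left ventricle (LV, n = 4), right ventricle (RV, n = 3), sinoatrial node (SA, n = 4), pulmonary vein (PV, n = 4) and pulmonary artery (PA, n = 4). The donors were 12 Wistar males of 8 to 11 weeks, with no genetic change and no treatment of the animals. The LA tissue lay next to the PV, LV samples were pieces cut from a block of the ventricle, the RV sample was its free wall, and each SA sample pooled tissue of 2 rats. The labels do not tie an array to a rat, so p-values here measure the spread between these tissue samples, some of which may share animals, and LV arrays may hold pieces of 1 heart.

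Natriuretic peptides are hormones and local signals made as longer precursors. Myocytes of the atria store the Nppa product, atrial natriuretic peptide, in secretory granules and release it when the wall is stretched. Nppb encodes B-type natriuretic peptide, which both atria and ventricles release under load, and Nppc encodes C-type natriuretic peptide, a local signal made mainly outside the myocytes. Corin, a protease on the myocyte surface, cleaves the Nppa precursor, and Furin, a protease of the secretory pathway, cleaves precursors at basic residues. Npr1 is the receptor of the Nppa and Nppb peptides and Npr2 that of the Nppc peptide. Both receptors make cyclic GMP (cGMP), whereas Npr3 mainly takes the peptides out of the circulation, and neprilysin degrades them.

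Nppa and Nppb are neighbouring genes on rat chromosome 5, and their promoters are shown because these genes had the widest regional differences. The sequences are those of RefSeq on build GRCr8, with GATAA, a core of the binding motif of GATA factors, in capitals. Both strands were searched over the 250 bases before each start site, from which positions are counted. For Nppb the annotated gene begins upstream of that site, so 197 bases are printed and the other bases searched lie within the gene.
Nppa: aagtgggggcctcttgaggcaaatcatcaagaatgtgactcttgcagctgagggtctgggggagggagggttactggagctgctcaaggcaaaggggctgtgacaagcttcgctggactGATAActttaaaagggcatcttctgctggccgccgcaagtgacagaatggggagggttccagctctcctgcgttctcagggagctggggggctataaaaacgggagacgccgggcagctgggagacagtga
Nppb: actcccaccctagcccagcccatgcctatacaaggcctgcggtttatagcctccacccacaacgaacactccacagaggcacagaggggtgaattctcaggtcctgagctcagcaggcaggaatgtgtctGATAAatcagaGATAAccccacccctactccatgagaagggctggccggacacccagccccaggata
The Nppa stretch is chr5:163711934-163712183 and the Nppb stretch is chr5:163699758-163699954, both on the + strand. The Nppa stretch held GATAA once, starting at position -131 from the start site. Nppb held it 3 times, at -120, -109 and -57, of which the last runs over the end of the 197 bases printed, the start of the annotated gene. The count of 3 rests on that match. Of 33469 promoters of the same length, 23.5% held GATAA at least once and 0.76% held it 3 or more times. TATAAA, the letters of a TATA box, stood at -39 in Nppa and, on the other strand, at -208 in Nppb, and in 12.9% of all promoters. CATTCC, the motif of TEAD factors, was found on the other strand of Nppb at -131 and in 12.1% of all promoters. A match describes the letters in these windows and was not related to any measurement.

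Expression is given as the log2 signal, log2(normalized signal + 1), so that a difference of 1 is a doubling of the signal. Of the arrays' probes, 58.6 to 79.8% were well above background, with a lower share in array row 2 (62.98 ± 3.55%, SD, n = 12 arrays) than in row 1 (76.90 ± 1.98%, n = 11), and no probe was saturated. Signals of different probes were not set against each other. Corin, Furin, Nppa, Npr1 and Npr2 were well above background on 23 of 23 arrays, Npr3 and Mme on 22, Nppb on 21 and Nppc on 4. Over the 6 regions, 7 of the 9 genes differed by limma's moderated F-test at a Benjamini-Hochberg adjusted p below 0.05, against 64.4% of all 16089 genes tested. The exceptions were Nppc (adjusted p = 0.297) and Furin (adjusted p = 0.0534). A share of 7 in 9 is close to the share over all genes, so what follows rests on the size and pattern of each difference.

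The region labels were checked with genes that mark cell types. Of the atrial myocyte genes, Mybphl had regional means of 17.19 to 17.64 in LA, SA and PV and 6.19 to 7.60 in LV, RV and PA, and Sln, a regulator of the calcium pump, ran from 7.07 in LV to 18.18 in LA. Myl7 ran from 12.07 in PA to 19.30 in SA, and Kcnj3 from 7.17 in PA to 12.91 in LA. Myl4 was at 10.36 in PA and at 17.67 to 17.92 in the other regions, and Bmp10 was well above background on no more than 2 arrays of any region, so its levels have no order. Shox2, a pacemaker transcription factor, was at 11.40 in SA, 11.03 in PV and 7.90 in LA, was at 5.27 in PA with 2 of 4 arrays above background, and was not above background in LV and RV. Other pacemaker genes did not all follow SA: the channel Hcn4 was highest in SA (10.34) and lowest in PA (6.79), whereas the transcription factors Tbx18 and Isl1 were highest in PA (12.23 and 8.70). Log2 sums of the pacemaker list were 12.03 to 12.61 in PA and 11.88 to 12.16 in PV, and the SA sums lay within the PA range. Myh11, the smooth muscle myosin, was at 17.50 in PA, 13.95 in PV, 13.01 in SA and 10.72 to 11.30 in LA, LV and RV. Mybphl, Sln, Myl7 and Kcnj3 had higher means in LA than in LV and RV, whereas Myl4 did not set LA apart from them. In tissue samples such as these, fewer cells of a type and less RNA per cell cannot be told apart.

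**Figure D1:**
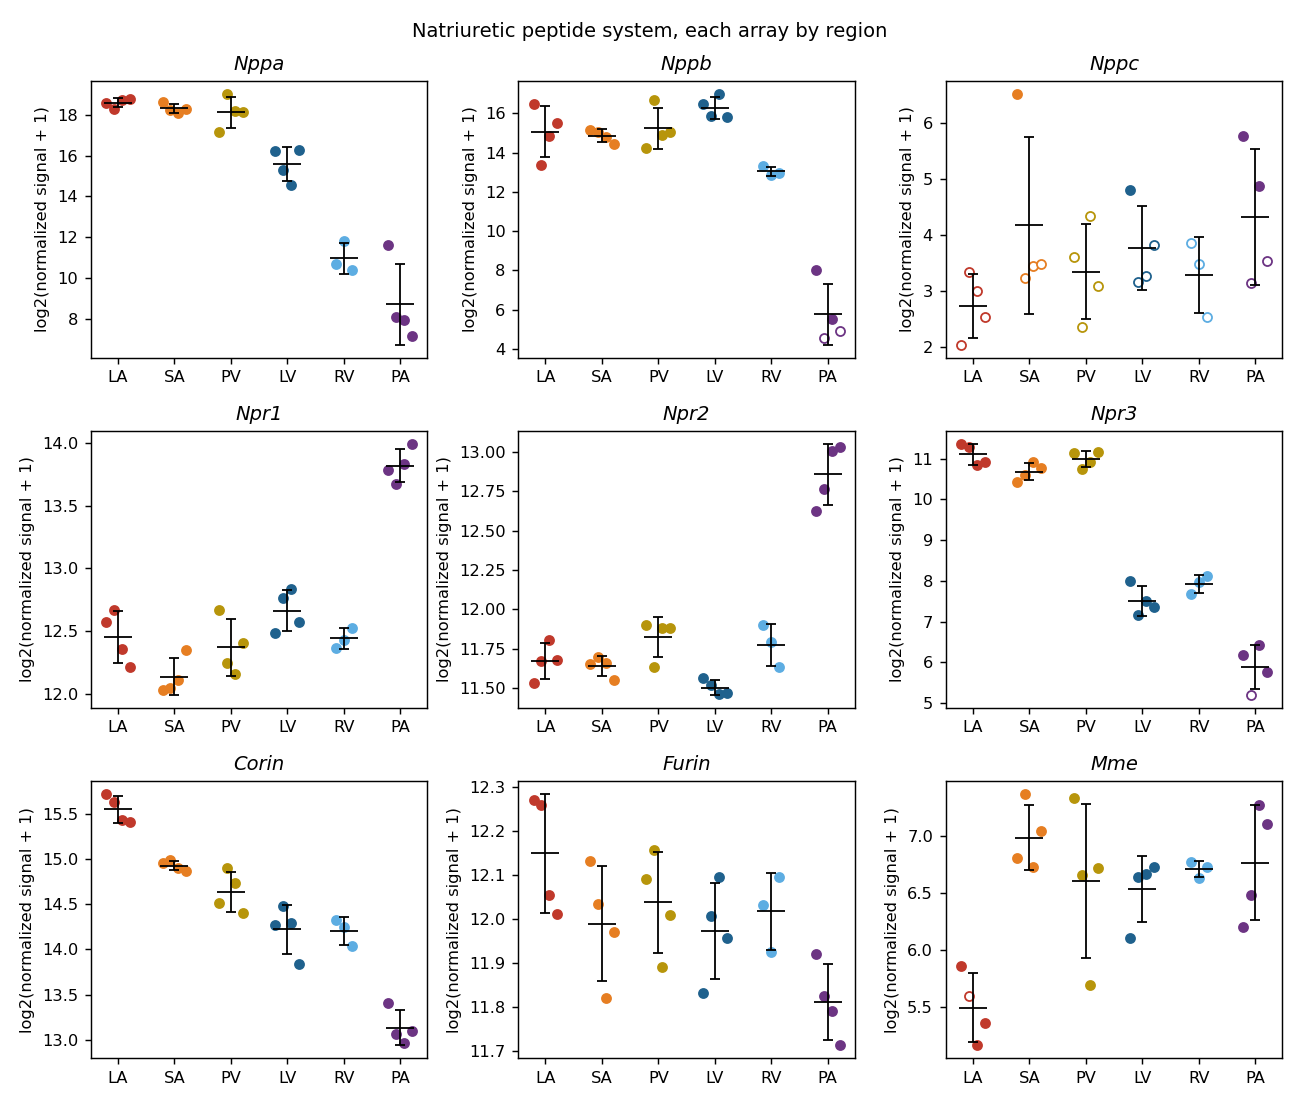
Log2 signal of the 9 genes (vertical axes, log2 of the normalized signal + 1) on each array, by region. Points are arrays (open where not well above background), bars are the mean and SD. Nppa and Npr3 stand high in LA, SA and PV, Nppb lowest in PA and highest in LV, and Npr1 and Npr2 highest in PA.

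Nppa was high in LA, SA and PV, lower in LV, lower again in RV and lowest in PA. In LA the 4 arrays were at 18.57, 18.30, 18.74 and 18.76. In SA they were at 18.62, 18.23, 18.10 and 18.27, and in PV at 17.17, 19.03, 18.18 and 18.12. These 3 regions overlapped, and no pair of them passed by limma (adjusted p from 0.745 to 0.939). The LV arrays were at 16.23, 15.29, 14.55 and 16.26, and the RV arrays at 10.70, 11.80 and 10.38. In PA the arrays were at 11.64, 8.09, 7.97 and 7.16, with replicate 1 well above the other 3. Every LV array lay below every LA, SA and PV array and above every RV array, while RV and PA overlapped through PA replicate 1. Next to each other in the order, PV and LV differed by 2.54 (adjusted p = 0.00699), LV and RV by 4.62 (adjusted p = 0.0037) and RV and PA by 2.24 (adjusted p = 0.0138), and over all pairs of regions 12 of 15 passed. In the pairs of LA, the share of all genes that passed was 33.8% with LV, 27.2% with RV, 15.3% with SA, 13.5% with PV and 52.1% with PA. It was 0.522% for LV with RV, 26.2% for LV with SA, 31.6% for LV with PV, 21.7% for RV with SA, 25.9% for RV with PV and 3.49% for SA with PV. In the pairs of PA it was 55.8% with LV, 53.6% with RV, 53.6% with SA and 53.4% with PV.

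Between the atrium and the ventricles (V, the mean of the LV and RV means), 4 of the 9 genes passed, 3 higher and 1 lower in LA, against 35.4% of all genes (16.9% higher and 18.4% lower). Nppa was higher in LA by 5.32 ± 0.60 (SE, adjusted p = 9.41e-07), the 13th largest difference among 16089 genes. Within each slide, an Agilent glass holding several arrays, the difference was 2.48 on slide 1, which held no RV array, and 5.54 and 5.69 on slides 2 and 3. With slide as a block it was 5.39 (adjusted p = 2.91e-06). SA was higher than V by 5.04 ± 0.60 (adjusted p = 2.67e-06), a 32.8-fold difference, and by 2.17 on slide 1 and 5.37 and 5.03 on slides 2 and 3. In that comparison 4 of 9 genes passed, 3 higher and 1 lower in SA, against 28.1% of all genes (12.3% higher and 15.8% lower). Markers of other cells moved with both comparisons. Mesothelial sums were 13.97 to 14.30 in LA and 9.63 to 12.30 in LV and RV, with 2 of 3 genes higher in LA, and 3 of 5 endothelial and 4 of 5 smooth muscle genes were lower in LA. In SA 5 of 5 smooth muscle genes (sums of 14.67 to 15.62 against 12.29 to 13.55 in LV and RV), 3 of 4 adipocyte genes (11.49 to 13.75 against 5.71 to 8.15) and 4 of 5 pacemaker genes were higher than in V, and 3 of 5 endothelial genes were lower. Fibroblast genes passed in 5 of 5, Col1a1 and Col1a2 higher and Pdgfra, Dcn and Lum lower in SA. Mesothelial genes passed in 3 of 3, Msln and Lrrn4 higher and Wt1 lower in SA. In either direction, 1 of 3 neuron, 2 of 4 conduction and 1 of 4 lung epithelium genes passed between SA and V. Ventricular myocyte genes were lower in 4 of 5 in both, and the part of these cells was not tested.

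**Figure D2:**
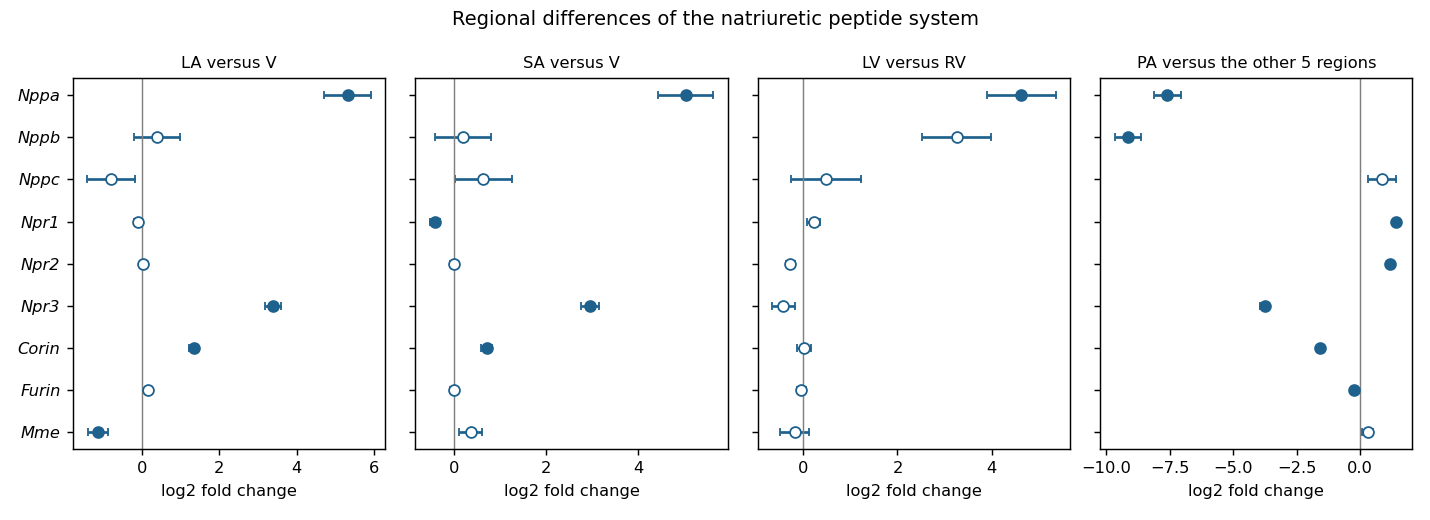
Log2 fold change (horizontal axes) of each gene in 4 comparisons, with standard errors from limma as bars. Filled points passed at an adjusted p below 0.05. Nppa, Npr3 and Corin are higher in LA and SA than in V, Nppa stands out between LV and RV at 4.62, and Nppa, Nppb and Npr3 are lowest in PA.

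Nppb was highest not in LA but in LV, with arrays at 16.47, 15.88, 17.01 and 15.82. LA was at 16.45, 13.38, 14.86 and 15.53, SA at 15.16, 15.06, 14.78 and 14.45, and PV at 14.26, 16.71, 14.89 and 15.06. Each LV array lay above each SA array, while LV, LA and PV overlapped and LA spread over 3.07. No pair of LA, LV, SA and PV passed by limma (adjusted p from 0.139 to 0.914). The fit shares 1 estimate of spread over the 6 regions, so these values also carry the spread of regions outside a pair. The SD of Nppb was 1.57 in PA, 1.29 in LA and 1.04 in PV, against 0.56 in LV, 0.32 in SA and 0.22 in RV. The RV arrays lay below all of these, at 13.29, 12.87 and 12.96, and the PA arrays were at 8.02, 4.54, 5.53 and 4.92, of which the arrays of replicates 2 and 4 were not well above background. RV was lower than LA by 2.02 (adjusted p = 0.0468) and than PV by 2.19 (adjusted p = 0.0328), and 7 of 15 pairs passed, 5 of them with PA. Against V, Nppb differed by 0.39 ± 0.60 in LA (adjusted p = 0.662) and by 0.20 ± 0.60 in SA (adjusted p = 0.858).

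The 2 ventricles differed in few genes, and the natriuretic peptides were among the largest differences. Nppa was higher in LV than in RV by 4.62 ± 0.73 (SE, limma adjusted p = 0.0037), a 24.7-fold difference and the largest of 16089 genes. It was the 1 of 9 genes that passed, against 0.522% of all genes (0.298% higher and 0.224% lower in LV). Nppb was higher in LV by 3.25 ± 0.73, a 9.54-fold difference ranked 4 of 16089, and narrowly missed the threshold (adjusted p = 0.0518), although each LV array lay above each RV array for both peptides. Within slides 2 and 3, the slides that held RV arrays, Nppa differed by 3.30 and 5.38 and Nppb by 3.93 and 3.22. Nppa missed the threshold when the ventricular arrays were fitted alone (adjusted p = 0.0723), whereas Nppb then passed (adjusted p = 0.0384). With slide as a block Nppa differed by 4.51 (adjusted p = 0.0132) and Nppb by 3.24 (adjusted p = 0.0782). With array row as a block Nppa differed by 4.69 (adjusted p = 0.00446) and Nppb by 3.47 (adjusted p = 0.00373). Without PA replicate 1 in the fit, both passed (adjusted p = 1.19e-05 for Nppa and 0.0122 for Nppb).

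**Figure D3:**
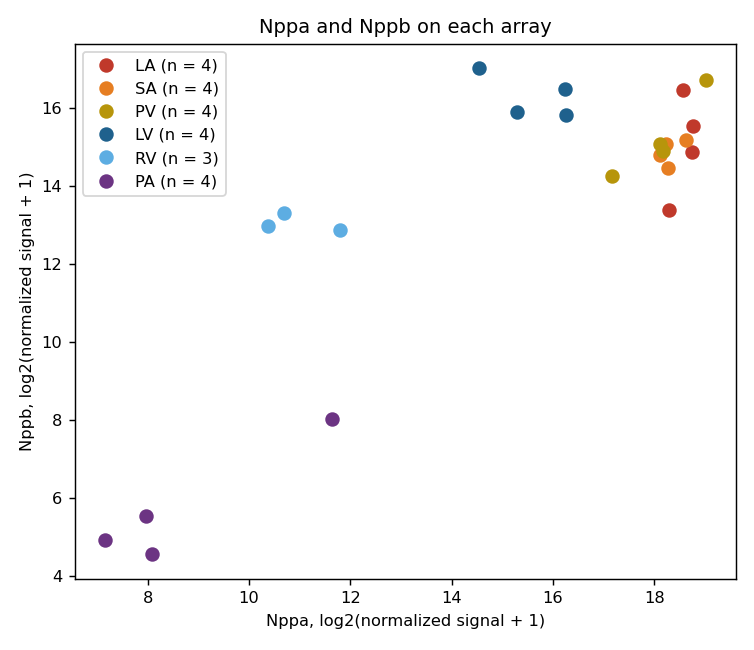
Nppb against Nppa, both as log2 signals, with 1 point for each of the 23 arrays, coloured by region. The 3 RV points lie below and left of the 4 LV points on both axes, LA, SA and PV lie together at the right, and PA replicate 1 lies between RV and the other PA arrays for Nppb and within the RV range for Nppa.

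The other 7 genes gave no call between the ventricles. Npr2 was lower in LV without overlap, at 11.46 to 11.57 against 11.63 to 11.90 (difference -0.27 ± 0.10, adjusted p = 0.289). Corin differed by 0.02 ± 0.15 (adjusted p = 0.985) and Npr3 by -0.42 ± 0.24 (adjusted p = 0.591). At an unadjusted p below 0.05, 3 of 9 genes were counted between the ventricles, Nppa, Nppb and Npr2, beside 10.7% of all genes.

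Atrial genes were checked beside the ventricular difference. None of the 6 atrial myocyte genes passed between LV and RV (2 at an unadjusted p below 0.05, limma, beside the 10.7% of all genes that also applies to the lists that follow), and their median difference was -0.31, against 0.005 over all genes. Their log2 summed signal was higher in LV without overlap, at 18.07 to 18.40 against 17.86 to 17.93 in RV. Most of this sum came from Myl4, which did not set LA apart from the ventricles and was at 17.84 to 18.00 in LV and 17.59 to 17.74 in RV. Sln was lower in LV (6.44 to 7.68) than in RV (8.17 to 10.66), and so was Kcnj3 (9.73 to 10.02 against 10.40 to 11.17). Mybphl was at 5.91 to 6.65 in LV and 6.49 to 9.09 in RV. Myl7, the atrial regulatory light chain and the gene whose pattern was most like that of Nppa, was at 16.34, 15.77, 14.58 and 16.21 in LV and at 13.99, 15.57 and 15.20 in RV. In LV the array lowest in Nppa, replicate 3, was also lowest in Myl7, while the highest was replicate 4 for Nppa and replicate 1 for Myl7. Replicate 4 was the lowest LV array for Sln (6.44), Mybphl (5.91) and Kcnj3 (9.73), opposite to Nppa. In RV the array highest in Nppa, replicate 2, was also highest in Myl7, Sln (10.66) and Mybphl (9.09), but lowest in Kcnj3 (10.40). The lowest RV array was replicate 3 for Nppa and replicate 1 for Myl7, Sln and Mybphl. Of the genes listed for ventricular conduction cells, which also make Nppa, 0 of 4 passed and 1 had an unadjusted p below 0.05, with log2 sums of 11.08 to 11.80 in LV and 10.82 to 11.35 in RV. This list was not particular to the ventricles, as its sums were highest in PA (12.22 to 12.73). Log2 sums of the mesothelial genes were lower in LV without overlap, at 9.63 to 11.08 in LV and 11.56 to 12.30 in RV, with 0 of 3 genes passing and 2 at an unadjusted p below 0.05. Of the smooth muscle genes 0 of 5 passed and 3 had an unadjusted p below 0.05, with sums of 12.29 to 13.55 in LV and 13.00 to 13.49 in RV. Sums of the fibroblast genes were also lower in LV without overlap, at 16.77 to 17.19 in LV and 17.20 to 17.44 in RV, with 0 of 5 passing and 1 at an unadjusted p below 0.05. The part of these tissues in the LV and RV values was not tested.

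**Figure D4:**
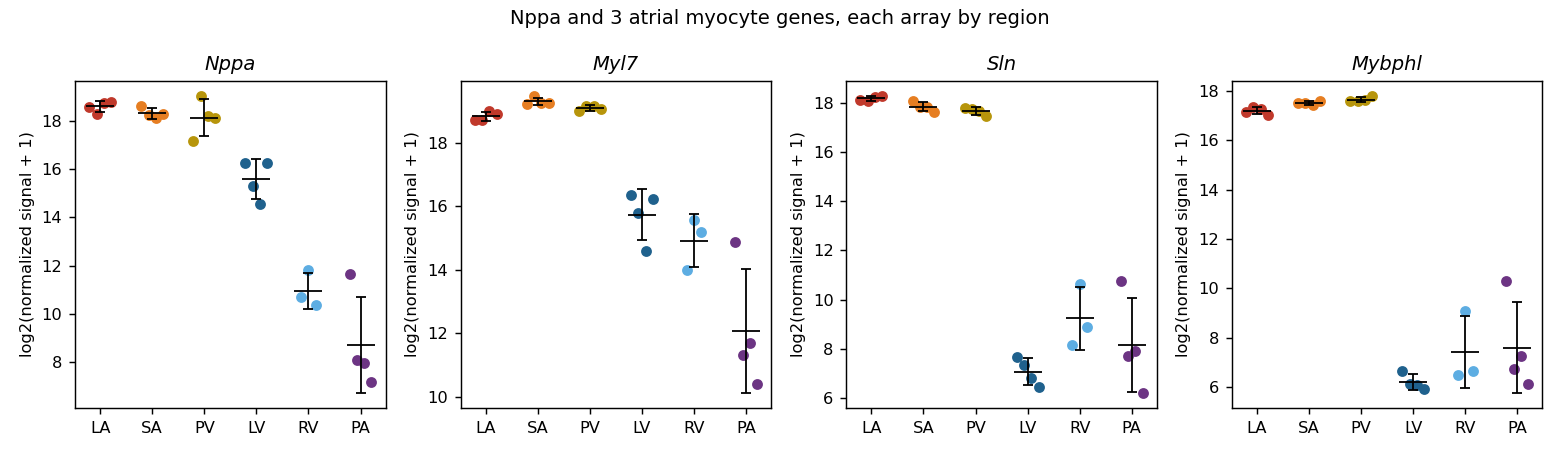
Nppa and the atrial myocyte genes Myl7, Sln and Mybphl as log2 signals on each array, by region. Points are arrays, bars the mean and SD. Sln and Mybphl are lower in LV than in LA by over 10 in the mean, Nppa by 3.01, and PA replicate 1 is the highest PA array for all 4 genes.

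Nppc was near background throughout. It was well above background on 4 of 23 arrays: SA replicate 1 at 6.53, PA replicates 1 and 3 at 5.77 and 4.88, and LV replicate 1 at 4.81. The other arrays had measured values of 2.04 to 4.35, and no region had more than 2 arrays above background. It was not called in any of the 15 pairs of regions, and regional levels of Nppc were not measurable at this signal.

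Npr3, the clearance receptor, was high in LA, SA and PV and low in LV, RV and PA. The LA arrays were at 11.37, 11.29, 10.85 and 10.92, the SA arrays at 10.43, 10.59, 10.91 and 10.78 and the PV arrays at 11.15, 10.74, 10.93 and 11.15. LV was at 8.0, 7.16, 7.51 and 7.36 and RV at 7.69, 7.96 and 8.12. The atrial and venous arrays all lay above the ventricular ones, and no pair passed within LA, SA and PV (adjusted p from 0.231 to 0.815). LA exceeded V by 3.39 ± 0.20 (adjusted p = 1.33e-10), a 10.5-fold difference, and by 3.49, 3.66 and 3.07 on the 3 slides. SA exceeded V by 2.96 ± 0.20 (adjusted p = 1.03e-09) or 7.79-fold. The 3 probes, of which 2 share an accession, gave LA minus V as 3.31, 3.42 and 3.12.

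PA had the lowest Npr3, at 6.18, 5.19, 6.43 and 5.77, with replicate 2 not well above background. It was lower than LV by 1.61 (adjusted p = 3.21e-06) and than RV by 2.03 (adjusted p = 4.92e-07). Of the 15 pairs of regions, 11 passed.

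The guanylyl cyclase receptors were highest in PA and close together in the other regions. Npr1 in PA was at 13.78, 13.68, 13.83 and 13.99, above each other array, which lay between 12.03 and 12.84. Npr2 in PA was at 12.63, 12.76, 13.01 and 13.03, above the 11.46 to 11.90 of the other regions. Against the mean of the other 5 regions, PA was higher by 1.41 ± 0.10 for Npr1 (adjusted p = 8.64e-11) and by 1.18 ± 0.07 for Npr2 (adjusted p = 2.12e-11), or 2.66-fold and 2.26-fold. On the 3 slides these differences were 1.64, 1.31 and 1.40 for Npr1 and 1.35, 1.34 and 1.02 for Npr2.

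Among the other 5 regions SA had the lowest Npr1 mean, 12.13 ± 0.15 (SD, n = 4), and was lower than V by 0.42 ± 0.11 (adjusted p = 0.00663) without overlap of the arrays. Npr1 passed the F-test over LA, V and SA (adjusted p = 0.0194), a test that 5 of the 9 genes passed (Nppa, Npr1, Npr3, Corin and Mme) against 40.5% of all genes. That call was lost without SA replicate 1 (adjusted p = 0.0638), 2 (0.0623) or 3 (0.053). Npr2 differed among the other 5 regions in 1 pair, LV below PV by 0.32 (adjusted p = 0.0131).

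Corin, the protease of the Nppa precursor, was highest in LA, intermediate in SA and PV, lower in both ventricles and lowest in PA. LA was at 15.72, 15.63, 15.43 and 15.41, SA at 14.95, 14.99, 14.90 and 14.86 and PV at 14.51, 14.90, 14.73 and 14.41. LV was at 14.27, 14.48, 14.29 and 13.84, RV at 14.33, 14.25 and 14.03, and PA at 13.41, 13.07, 12.96 and 13.09. Every LA array lay above each array of the other regions, and every PA array below. Of the 15 pairs of regions 13 passed, all but LV with RV and SA with PV (difference 0.29, adjusted p = 0.296). LA exceeded V by 1.34 ± 0.12 (adjusted p = 4.25e-08) or 2.53-fold, with 1.59, 1.39 and 1.2 on the 3 slides, and SA exceeded V by 0.72 ± 0.12 (adjusted p = 0.000122). The second Corin probe, dimmer on each array, gave LA minus V as 1.52 and SA minus V as 0.88.

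Corin and Mme were the 2 of 9 genes that separated LA from SA and from PV, in each case Mme higher and Corin lower than in LA. All genes passed as higher in SA in 7.03% and lower in 8.26% (15.3% together), and as higher in PV in 6.99% and lower in 6.51% (13.5% together). Corin was lower in SA by 0.62 ± 0.13 (adjusted p = 0.00357) and in PV by 0.91 ± 0.13 (adjusted p = 0.000143). On the 3 slides it was lower in SA by 0.46, 0.81 and 0.50 and in PV by 0.73, 1.27 and 0.67, and with slide as a block by 0.61 in SA and 0.90 in PV. The smooth muscle genes moved with both differences, with 5 of 5 higher in SA than in LA and 5 of 5 higher in PV, and log2 sums of 12.15 to 12.61 in LA, 14.67 to 15.62 in SA and 15.81 to 16.46 in PV. Mesothelial genes were lower than in LA in 3 of 3 in both regions, with sums of 13.97 to 14.30 in LA, 12.09 to 12.98 in SA and 11.44 to 12.89 in PV. Pacemaker genes were higher in 3 of 5 in SA and 4 of 5 in PV, and fibroblast genes were higher in 2 of 5 in both and lower in 2 of 5 in SA. Adipocyte genes were higher in 1 of 4 in SA and 3 of 4 in PV, with sums of 7.78 to 9.46 in LA, 11.49 to 13.75 in SA and 9.50 to 12.92 in PV. Neuron genes were higher in 1 of 3 in SA and 2 of 3 in PV, with sums of 9.05 to 9.69 in LA, 10.13 to 10.95 in SA and 10.80 to 14.15 in PV. The part of these cells in the Corin and Mme differences was not tested, and the atrial myocyte list gave no call in either comparison (0 of 6).

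Mme encodes neprilysin and was dim but above background on 22 of 23 arrays. LA was lowest, at 5.86, 5.59, 5.16 and 5.35, with replicate 2 not well above background. SA was at 6.81, 7.37, 6.73 and 7.04, LV at 6.10, 6.64, 6.67 and 6.73 and RV at 6.77, 6.63 and 6.73. Each of these arrays exceeded each LA array, and LA was lower than V by 1.13 ± 0.25 (adjusted p = 0.00149) and SA higher than LA by 1.5 ± 0.28 (adjusted p = 0.00136). PV was at 7.34, 6.66, 5.69 and 6.72 and overlapped LA through replicate 3. PV was higher than LA by 1.11 ± 0.28 (adjusted p = 0.0125), by 1.84, 1.0 and 0.34 on the 3 slides, and missed the threshold when LA and PV were fitted alone (adjusted p = 0.0907). All 5 pairs of LA with another region passed, and none of the other 10 did, so LA was the region with low Mme.

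Furin was the most even of the genes above background. Its 23 arrays lay between 11.71 and 12.27, with regional means of 11.81 in PA to 12.15 in LA. PA was lower than the mean of the other regions by 0.22 ± 0.07 (adjusted p = 0.00915), with overlapping arrays, and within slide 3 by 0.075. Of the 15 pairs of regions 2 passed, LA above PA by 0.34 (adjusted p = 0.00308) and PV above PA by 0.23 (adjusted p = 0.0384). LA differed from V by 0.15 ± 0.08 (adjusted p = 0.143).

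No member separated PV from SA: 0 of 9 passed by limma, against 3.49% of all genes (2.71% higher and 0.783% lower in PV), and 1 of 9, Corin, had an unadjusted p below 0.05, beside 15.9% of all genes. The standard error of this comparison was 0.68 for Nppa and Nppb and 0.09 to 0.28 for the others apart from Nppc.

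In PA, 7 of 9 genes were called against the other 5 regions, 2 higher and 5 lower, beside 59.1% of all genes (31.4% higher and 27.7% lower), a share close to that over all genes. Nppb was lower in PA than in the mean of the other 5 regions by 9.14 ± 0.53 (SE, adjusted p = 6.45e-12), but only replicates 1 and 3 of the 4 PA arrays were well above background, so the size of this difference is limited by background and was not ranked. Nppa was lower by 7.60 ± 0.53 (adjusted p = 1.24e-10), Npr3 by 3.75 ± 0.17 (adjusted p = 2.19e-13) and Corin by 1.57 ± 0.10 (adjusted p = 6.24e-11). PA replicate 1 held more of both peptides than the other PA arrays, and without it the difference was -8.58 for Nppa and, with 2 of the 3 remaining PA arrays not well above background, -9.90 for Nppb. The same array was the highest in PA for Myl7 (14.88 against 10.39 to 11.70), Sln (10.76 against 6.20 to 7.93) and Mybphl (10.28 against 6.13 to 7.26). Of the marker lists in PA, smooth muscle genes were higher in 5 of 5 and adipocyte genes in 4 of 4, and ventricular myocyte genes were lower in 5 of 5 and atrial myocyte genes in 5 of 6. Log2 sums of the atrial list were 11.70 to 15.14 in PA and 20.01 to 20.40 in LA, SA and PV, and the part of myocytes in the PA values was not tested.

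Of the genes that act on cGMP, 12 of 19 in PA passed as higher and 5 as lower, beside 31.4% and 27.7% of all genes, with a median difference of 0.91 against 0.05 over all genes. The largest rises were in Irag1, a target of the cGMP-dependent kinase at the calcium store (5.38 ± 0.13), Pde5a, a phosphodiesterase that breaks down cGMP (4.98 ± 0.15), and Gucy1b1, a subunit of the nitric oxide-activated cyclase (2.67 ± 0.11). Irag1 was at 16.08 to 16.46 in PA and Pde5a at 12.79 to 13.43, above all other arrays. The largest falls were in Pde2a, a cGMP-stimulated phosphodiesterase (-3.43 ± 0.08), Pde9a, a cGMP phosphodiesterase (-1.75 ± 0.16), and Abcc4, a transporter that exports cyclic nucleotides (-1.52 ± 0.06). All 6 had adjusted p from 9.21e-18 to 5.59e-09, and the smooth muscle list was higher in the same arrays.

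Between LA and V, cGMP genes passed as higher in 3 and lower in 6 of 19, beside 16.9% and 18.4% of all genes, with a median of -0.37 against -0.09. Higher in LA were Prkg1, the cGMP-dependent kinase, by 1.66 ± 0.20, Rgs2, a regulator of G-protein signals and a target of that kinase, by 1.05 ± 0.14, and Gucy1a1, a cyclase subunit, by 0.82 ± 0.09. Vasp, a kinase substrate on actin, was lower by 0.58 ± 0.09. Prkg1 was not above background on 4 of the ventricular arrays. Between LV and RV 0 of 19 passed by limma, and 4 had an unadjusted p below 0.05, beside 10.7% of all genes.

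**Figure D5:**
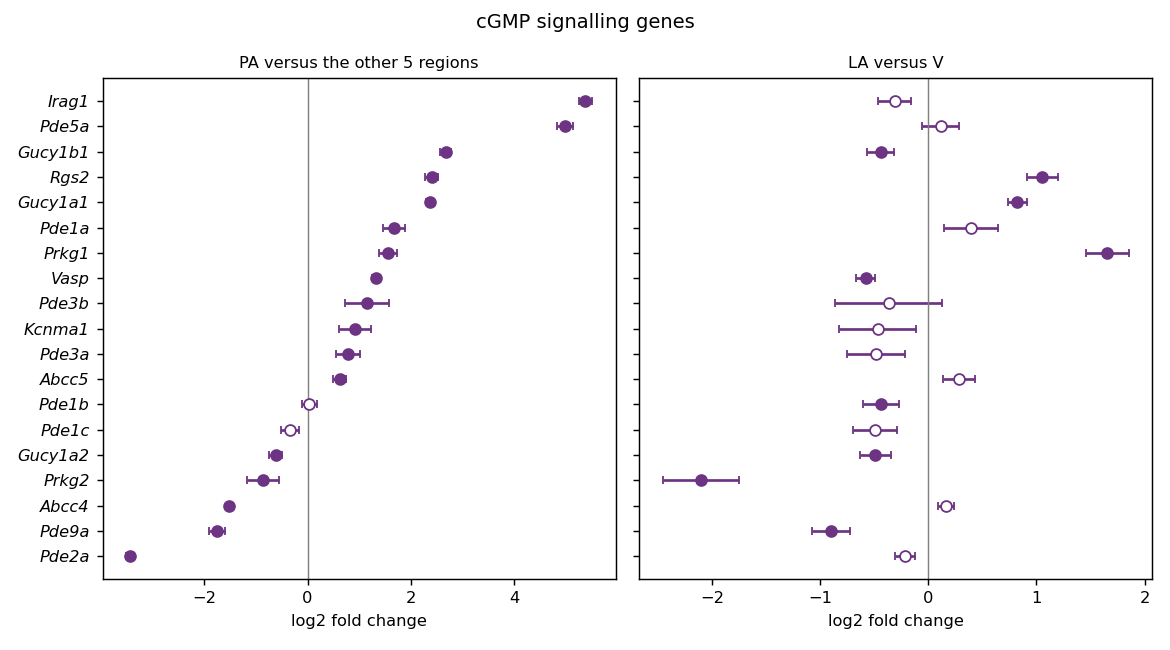
Log2 fold change of 19 cGMP signalling genes (horizontal axes) between PA and the other 5 regions and between LA and V, with standard errors as bars. Filled points passed at an adjusted p below 0.05. Irag1 and Pde5a lie near 5 in PA, and Pde2a is lowest at -3.43.

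Genes of the secretory granule passed as higher in LA than in V in 4 of 10 and lower in 1 of 10, beside 16.9% and 18.4% of all genes, with a median of 0.12. Pam, the amidating enzyme and a main membrane protein of atrial granules, was at 17.64 to 18.00 in LA and 15.43 to 15.96 in LV and RV, higher in LA by 2.26 ± 0.13 (adjusted p = 1.4e-10). Scg5, a chaperone of a prohormone convertase, was higher by 1.79 ± 0.24 and Cpe, a carboxypeptidase of granules, by 0.45 ± 0.11, while the convertase Pcsk6 was lower by 1.52 ± 0.15. In PA 1 of 10 passed as higher (Pcsk5, a convertase, by 2.21 ± 0.16) and 5 as lower, among them the convertase Pcsk7 (-1.08 ± 0.10), beside 31.4% and 27.7% of all genes, with a median of -0.71. Between LV and RV 0 of 10 passed and 2 had an unadjusted p below 0.05, beside 10.7% of all genes.

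Genes of peptide degradation and clearance other than the 9 were mixed. Between LA and V 1 of 8 passed as higher, Ece1, an endothelin-converting protease, by 0.70 ± 0.15 (adjusted p = 0.000817), and 1 as lower, beside 16.9% and 18.4% of all genes. In PA 3 of 8 passed as higher, led by Ece2 at 3.19 ± 0.09 (adjusted p = 1.95e-16), and 3 as lower, close to the 31.4% and 27.7% of all genes. Between LV and RV 0 of 8 passed and 1 had an unadjusted p below 0.05, beside 10.7% of all genes. The list medians were -0.06 in LA against V and 0.01 in PA, close to -0.09 and 0.05 over all genes.

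Over the 23 arrays, genes with patterns most like Nppa included Myl7 (Pearson r = 0.958) and Aif1l (0.954), among 13100 genes above background in a region. Those most like Nppb included Bnip3 (0.968) and Dnajc12 (0.965), and those most like Npr3 were Cited1 (0.982), Ica1 (0.976) and Pkp4 (0.975). Nppc, near background, reached 0.685 with Wnt9b, 0.667 with Ifnar1 and 0.631 with Cops7b. The arrays of a region share a tissue, so the values for Nppa, Nppb and Npr3 describe regional patterns. Those for Nppc rest mostly on arrays where it was not well above background and describe no regional pattern. Bnip3 and Dnajc12 were lowest in PA, as Nppb was. Like Npr3, Cited1 and Ica1 were higher in LA, SA and PV (14.39 to 14.71 and 12.50 to 12.74) than in LV and RV (11.24 to 11.40 and 9.07 to 9.37).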

How the data were processed

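The authors hybridised Cy3-labelled cRNA to Agilent SurePrint arrays and, per the labels, read them with Agilent Feature Extraction 11.0.1.1. The main values are the intensity values the authors deposited, background-subtracted, detrended and scaled to the 90th percentile. On each array, at least 99.5% of probes lay within 2% of 1 constant times the scanner's processed intensity, with constants of 0.88 to 1.52. The 156 probes with a missing value were left out. A gene's value was log2(intensity + 1) of its highest probe on each array, with 21047 probes named through RefSeq accessions (GRCr8 gene table). Genes above 4 on at least 1 array (16089) were fitted with limma 3.58.1 in R 4.3.3 over 6 region means, and p-values were adjusted by Benjamini-Hochberg over all of them. The F-test over LA, V and SA was a separate fit of 15 arrays and 15809 genes, adjusted over these. V is the mean of the LV and RV means, and in the F-test over LA, V and SA the pooled LV and RV arrays. On simulated data at a log2 change of 1, 63% (LV and RV) to 80.5% (PA) of 200 changed genes were recovered. Those genes were drawn at random, each with its own spread, so the shares do not apply to a single member. Nppa and Nppb had a standard error of 0.73 between LV and RV. Array row and slide came from the scanner files. The members and lists (cGMP signalling, secretory granule, peptide degradation and the marker lists of atrial and ventricular myocytes, conduction, pacemaker, smooth muscle, fibroblast, endothelium, adipocyte, lung epithelium, mesothelium and neuron) were chosen with earlier results of these data known. All 9 members are named. From the pathway lists, up to 3 genes per direction were named by size among those called, above background in the higher group and without overlap. Between LV and RV no gene of the 11 marker lists passed. In PA the remaining lists had these counts of higher and lower genes: conduction 3 and 0 of 4, pacemaker 2 and 2 of 5, fibroblast 3 and 1 of 5, endothelium 1 and 3 of 5, lung epithelium 1 and 0 of 4, mesothelium 0 and 1 of 3, neuron 2 and 1 of 3. Figures were drawn with matplotlib 3.10.9. For Nppa, Nppb, Nppc and Npr3 the 3 genes with the highest Pearson r over the arrays were sought, and some of them are not reported here.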

Additional observations from a re-analysis of the deposited data

Results flagged for a closer look

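In 3 of 45 groups of 4 arrays, 1 array stood far from the other 3 by Dixon's test, which flags about 1 group in 20 by chance. Nppc was at 6.53 in SA replicate 1, against 3.23 to 3.49 on the other SA arrays, none of which was well above background. Npr2 was at 11.63 in PV replicate 2, against 11.88 to 11.9 on the other PV arrays. Mme was at 6.1 in LV replicate 1, against 6.64 to 6.73 on the other LV arrays.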

How the results depend on the processing

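The number of genes called among the 9 was recomputed under the alternative settings in 9 comparisons, which gave 332 counts, of which 319 stayed within 1.5 times the reported number and 13 moved. No direction was reversed. Between LV and RV it was 2 in place of 1, with Nppb added, for scanner signals scaled to the 90th or 75th percentile, normexp correction, a filter on probes above background, a pseudocount of 16, array row as a block and a trend in the prior variance. With 1 array left out it ranged from 1 to 2, with 2 without LA replicates 1 or 2, PA replicates 1 or 2, or PV replicate 2. It was also 1 when LV and RV were fitted alone, with Nppb called in place of Nppa. PV against LA gave 1 in place of 2 with those arrays alone. The cause of these shifts was not tested.

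Replicate numbers did not pair the arrays: arrays of 1 number had correlations of -0.38 to 0.34 in their deviations from region means. With a replicate block the members called stayed at 7 and 5 in the F-tests, 4 for LA against V, 1 for LV against RV and 7 for PA, with no call changed, and genes called between LV and RV went from 84 to 79.

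All genes called between LV and RV ranged from 13, with those arrays alone, to 144, with a trend in the prior variance, and without RV replicate 2 they were 41. SA against LA gave 4903 after normexp correction in place of 2460. PV against LA gave 1264 in place of 2172 with those arrays alone. PV against SA gave 67 in place of 562 with those arrays alone, 350 after normexp correction, 176 without PV replicate 4, and 245, 298 and 251 without SA replicates 1, 2 and 3. Keeping accessions without a symbol, each as a gene, tested more features and raised calls to 19200 over 6 regions, 10010 over LA, V and SA, 9371 for LA against V, 6924 for SA against V and 18488 for PA. Furin passed the F-test over 6 regions in 11 settings (adjusted p from 0.0282 to 0.0497). After normexp correction Nppc passed that test (adjusted p = 0.0162), the test over LA, V and SA (0.0186), LA against V (0.0371) and SA against LA (0.00676), and in PA it passed without SA replicate 1 (0.0449). Npr1 missed the threshold over LA, V and SA with the 75th percentile (0.0529) and passed between SA and LA without LA replicate 4 (0.0423). The 90th and 75th percentile scalings and quantile normalization kept every direction reported for a called gene. Signal near background limits Nppc, and Nppb in PA.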
